A study of Rattus norvegicus with 399 samples.

Results

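A set of 60 cell cycle and mitosis genes, of the 2654 genes on the rat S1500+ panel, was followed in 5 tissues of female Sprague-Dawley rats exposed to dichlorobenzene. A gene belonged to the set when its probe symbol began with Mcm, Ccna, Ccnb, Ccnd, Ccne, Cdca, Cdc25, Cenp, Kif, Aurk, Bub, Plk, Cks or Cdk followed by a digit, or was Cdc6, Cdc7, Cdc20, Cdc45, Pcna, Prc1, Racgap1, Zwint or Top2a. The rule used symbols only and no measured value. By role the set held 10 genes of DNA replication, 8 cyclins, 10 cyclin-dependent kinases and their close partners, 8 mitotic kinases and checkpoint genes, 13 genes with Cenp or Cdca symbols or Zwint, most of them of the kinetochore or the chromosome passenger complex, and 11 motors and cytokinesis genes.

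The rats were 9 weeks old and RNA was taken on study day 5 from liver, kidney, heart, lung and ovary, and read with TempO-Seq, an assay that ligates pairs of detector probes on each target RNA and counts the ligated products by sequencing. One set of rats received 1,2-dichlorobenzene (1,2-DCB, a benzene ring with chlorines on neighbouring carbons) at 0, 1, 10, 30, 100, 250 or 500 ppm. Another set received 1,4-dichlorobenzene (1,4-DCB, with the chlorines on opposite carbons) at 0, 1, 10, 50, 150, 400 or 800 ppm. Each compound had its own 0 ppm controls. The sources used here do not state the route of exposure. Control groups held 10 libraries and exposed groups 5, 1 per rat and tissue, except that 9 libraries were controls in kidney with 1,2-DCB and 8 in lung with 1,4-DCB. Exposed groups of 4 were lung at 500 ppm of 1,2-DCB, kidney at 1 ppm of 1,4-DCB, and lung at 1, 10 and 150 ppm of 1,4-DCB, and lung at 400 ppm of 1,4-DCB held 3.

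The 390 libraries used held 1.2 to 69.8 M counts (M for 1000000, median 22.6 M), with liver the deepest at 23.5 to 69.8 M. Tissue labels were checked against marker genes in the 1,2-DCB controls. The 8 hepatocyte markers summed to 470370 to 689740 counts per 1000000 counts (CPM) in liver, the 4 cardiomyocyte markers on the panel to 257220 to 408420 CPM in heart, and the 7 granulosa and luteal markers on the panel to 10958 to 17127 CPM in ovary. Only 1 of 8 kidney tubule markers and 0 of 8 lung epithelium markers were on the panel, so those 2 labels were not checked in this way. Aurkb, the kinase of the chromosome passenger complex, and Kif11, the motor that pushes spindle poles apart, had 0 counts in every library.

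As background, a dividing cell copies its DNA once, with the MCM helicase opening the double helix and PCNA clamping the polymerases to it, and then separates the copies on a spindle of microtubules. Cyclins rise and fall through this cycle and switch on their kinases, and the anaphase-promoting complex with Cdc20 destroys mitotic cyclins when all chromosomes are attached at their kinetochores. Most hepatocytes and cardiomyocytes of an adult rat are out of the cycle, whereas the follicles of the ovary hold many dividing granulosa cells. Many genes of DNA replication are switched by E2F factors, and many genes of mitosis by the DREAM and MuvB complexes through the cell cycle homology region (CHR), often near CCAAT boxes bound by NF-Y.

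Promoters are shown for 4 genes that rose in liver at the top concentration of both compounds, to show where such letters lie. Among genes with such letters wholly within the 250 bases before the start, they are the 2 highest by the smaller of their 2 changes for CHR letters, Kif22, a chromosome-binding kinesin, and Prc1, which bundles the microtubules of the anaphase midzone, and the 2 highest for E2F letters, the helicase subunits Mcm5 and Mcm6. Cenpw and Mcm3 changed more than some of these, and their CHR or E2F letters lie across or after the start. Each is the 250 bases before the RefSeq gene start (GRCr8), read 5′ to 3′ on the gene's strand, with matches in capitals. The windows are chr1:191080879-191081128 on the minus strand for Kif22, chr1:143659231-143659480 on the plus strand for Prc1, chr19:13488563-13488812 on the plus strand for Mcm5 and chr13:42404353-42404602 on the minus strand for Mcm6.
Kif22: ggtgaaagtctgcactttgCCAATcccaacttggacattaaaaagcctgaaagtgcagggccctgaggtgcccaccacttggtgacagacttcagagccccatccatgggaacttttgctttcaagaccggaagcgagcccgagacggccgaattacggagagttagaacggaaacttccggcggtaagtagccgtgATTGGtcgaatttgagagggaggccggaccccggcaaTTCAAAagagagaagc
Prc1: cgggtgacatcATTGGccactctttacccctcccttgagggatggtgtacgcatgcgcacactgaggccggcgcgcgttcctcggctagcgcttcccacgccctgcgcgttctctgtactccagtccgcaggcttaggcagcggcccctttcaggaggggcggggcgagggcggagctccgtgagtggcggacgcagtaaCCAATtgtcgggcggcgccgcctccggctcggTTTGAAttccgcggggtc
Mcm5: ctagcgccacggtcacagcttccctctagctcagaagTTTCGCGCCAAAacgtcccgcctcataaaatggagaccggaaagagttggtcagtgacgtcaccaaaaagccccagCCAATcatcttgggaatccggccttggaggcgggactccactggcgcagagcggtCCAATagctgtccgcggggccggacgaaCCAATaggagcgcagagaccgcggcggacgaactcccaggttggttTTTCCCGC
Mcm6: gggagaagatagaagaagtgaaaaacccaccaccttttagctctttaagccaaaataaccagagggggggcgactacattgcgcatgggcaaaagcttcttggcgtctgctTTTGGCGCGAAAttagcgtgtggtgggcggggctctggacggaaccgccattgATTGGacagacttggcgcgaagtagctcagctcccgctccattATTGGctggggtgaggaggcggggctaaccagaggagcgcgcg
The letters searched on both strands were TTTGAA or TTCGAA for the CHR, TTTCCCGC, TTTGGCGC, TTTCGCGC or TTTGCCGC for E2F, and CCAAT. The CHR match began 16 bases before the start in Kif22 and 18 bases before it in Prc1, in each downstream of a CCAAT match, which began 53 and 50 bases before the start. Mcm5 and Mcm6 each held a pair of overlapping E2F matches on opposite strands, printed as 1 run of capitals, and Mcm5 held another E2F match 8 bases before its start.

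Over the RefSeq windows of 300 bases (250 before to 50 after the start), 48 of the 60 genes had a promoter in the table. CHR letters stood in 22 of these (45.8%), against 19.7% of all 33464 promoters and 15.6% of the 2021 panel genes with a promoter. CCAAT stood in 31 (64.6%), against 37.5% and 40.8%. E2F letters stood in 7 (14.6%), against 2.14% and 4.16%. These are counts of letters in a window and do not show that a factor binds there.

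On plain CPM, most genes of the set were lowest in liver and highest in ovary in control rats. Of the 58 genes with any count, 52 had their highest mean CPM in ovary and 55 their lowest in liver among the 1,2-DCB controls, and 50 and 54 among the 1,4-DCB controls. Ccnb2, a mitotic cyclin that activates Cdk1, stood at 1.03 ± 0.34 CPM in liver (SD, n = 10), 4.93 ± 1.5 in heart (n = 10), 5.71 ± 1.3 in kidney (n = 9), 16 ± 3.6 in lung (n = 10) and 94.6 ± 19 in ovary (n = 10). Heart and kidney overlapped, at 2.28 to 7.09 and 3.21 to 7.44 CPM, and liver (0.519 to 1.75), lung (10.1 to 21.7) and ovary (66 to 124.3) did not overlap with their neighbours in that order. The order at the low end depends on the scaling, since a few hepatocyte genes take much of each liver library: on TMM-scaled libraries 31 and 29 genes were lowest in liver, and 43 and 42 highest in ovary. The share of all panel probes highest in ovary or lowest in liver was not computed. All values that follow are CPM on TMM-scaled libraries, called normalised CPM. In a whole tissue, more dividing cells and more RNA per dividing cell cannot be told apart.

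In liver the set rose at the upper concentrations of both compounds, and no gene of it fell. With 1,2-DCB, 29 of 39 tested genes rose at 250 ppm (13.5% of all 2019 probes tested rose and 11.2% fell) and 33 of 39 at 500 ppm (35% and 32.7%). With 1,4-DCB, 16 of 35 rose at 400 ppm (4.75% of all probes rose and 1.68% fell) and 24 of 35 at 800 ppm (19.5% and 15.4%). The median log2 fold change of the tested genes was 1.89 and 1.52 with 1,2-DCB and 0.80 and 1.67 with 1,4-DCB, while the median over all probes lay between -0.0218 and 0.035 in these 4 comparisons. A call is an adjusted p below 0.05 in edgeR's quasi-likelihood test against the same compound's controls.

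**Figure D1:**
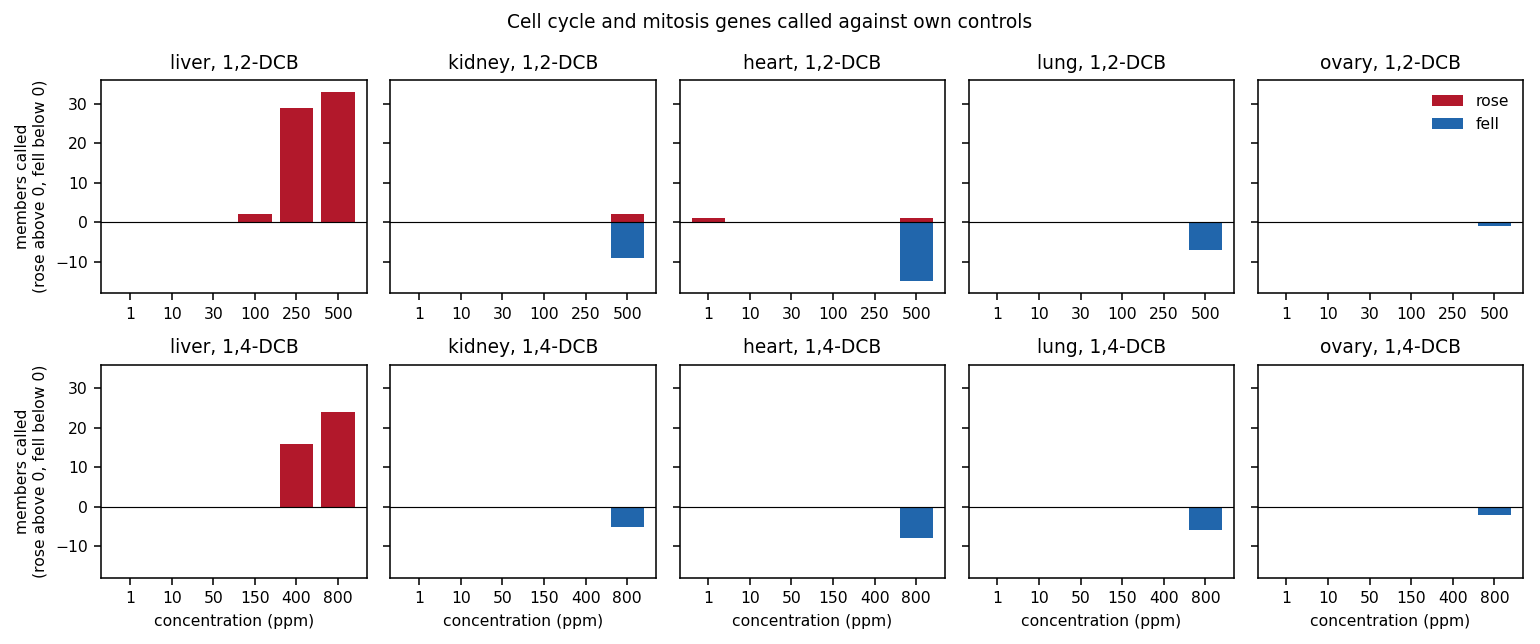
Number of cell cycle and mitosis genes called against the compound's own controls (vertical axis, risen genes above 0 and fallen genes below 0) by concentration in ppm (horizontal axis), for 5 tissues with 1,2-DCB (top) and 1,4-DCB (bottom). Rises stand in liver at 250 and 500 ppm (29 and 33 genes) and at 400 and 800 ppm (16 and 24), and most falls stand at the top concentration in heart, kidney and lung.

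The low-value filter bears on these counts, because liver controls hardly express the set. The median raw count of a member in a liver library was 5.25 in 1,2-DCB controls, and 21 and 20 at 250 and 500 ppm. Of the 39 and 35 tested genes, 22 and 26 would pass on the controls alone, and of those 16 and 19 rose at 250 and 500 ppm of 1,2-DCB and 11 and 18 at 400 and 800 ppm of 1,4-DCB. With no filter, 58 genes were tested and 36, 39, 16 and 35 of them rose. The share of all probes that rose is not given for either of these checks, so their counts have no matched background. Plain CPM were also compared, as the log2 ratio of group means with a small constant added to each mean. The constant pulls the change of genes with low CPM towards 0, so these values differ from the TMM ones by more than the scaling. The median over all probes in liver was then 0.231 and 0.311 at 250 and 500 ppm of 1,2-DCB. For the tested genes the median was 1.18 and 1.07, and 38 of 39 genes lay above 0 in both. At 400 and 800 ppm of 1,4-DCB plain CPM gave medians of 0.484 and 0.993 for the tested genes, with 6 and 5 of 35 below 0.

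Below those concentrations little was called. At 100 ppm of 1,2-DCB, 2 genes rose, the spindle kinase Aurka (0.96 ± 0.25) and the microtubule-shortening kinesin Kif18b (1.35 ± 0.33), when 1.49% of all probes rose, and 13 rose at an unadjusted p under 0.05. Neither gene was called without rat F401, without rat F403 or with voom, and 1 was without rat F404 or control F1, F2, F3 or F8. At 30 ppm 0 were called, with 7 higher at an unadjusted p under 0.05. The share of all probes at an unadjusted p was not computed, so the 13 and the 7 have no background. The rats differed at these concentrations. At 100 ppm rats F403 and F401 had 23 and 17 of 39 genes above every control (13% and 14.3% of all probes), and the other 3 rats had 3 to 8 (9.96% to 13.2%). At 30 ppm rat F302 had 19 (9.81% of all probes) and the others 2 to 7 (8.22% to 13.6%).

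Genes of DNA replication rose with both compounds, in 8 of 8 tested at 250 ppm and 7 of 8 at 500 ppm of 1,2-DCB, and in 2 of 8 at 400 ppm and 7 of 8 at 800 ppm of 1,4-DCB. The counts by role, here and below, stand beside 13.5%, 35%, 4.75% and 19.5% of all probes that rose in these 4 comparisons. They include genes that would not pass the filter on the controls alone, and no count by role was made without those. Mcm3, a subunit of the replicative helicase, stood at 0.472 to 0.834 normalised CPM in the 1,2-DCB controls (median 0.679), at 2.94, 5.38, 2.66, 2.16 and 1.82 at 250 ppm and at 4.38, 2.45, 3.36, 2.15 and 2.55 at 500 ppm (log2 fold changes 2.17 ± 0.23 and 2.15 ± 0.23, adjusted p = 1.06e-09 and 7.74e-11). Every exposed rat at both concentrations lay above every control. With 1,4-DCB the controls were at 0.389 to 1.18 (median 0.583), the 400 ppm rats at 1.27, 1.24, 1.53, 1.41 and 0.623 (0.74 ± 0.27, adjusted p = 0.101) and the 800 ppm rats at 1.76, 2.1, 3.55, 3.67 and 2.78 (1.93 ± 0.26, adjusted p = 1.40e-07). At 400 ppm 4 of 5 rats exceeded every control, and at 800 ppm all 5 did.

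Pcna, the sliding clamp, moved less on the log2 scale. Its 1,2-DCB controls stood at 5.95 to 10.3 normalised CPM (median 7.15), the 250 ppm rats at 12.9, 20.4, 13.5, 14.7 and 10.7 (0.88 ± 0.12, adjusted p = 6.14e-07) and the 500 ppm rats at 14.1, 14.3, 16.4, 11.7 and 20.1 (0.97 ± 0.12, adjusted p = 6.95e-09). Its 1,4-DCB controls stood at 7.42 to 9.78 (median 7.86), the 400 ppm rats at 10.7, 10.7, 11.5, 8.8 and 8.49 (0.30 ± 0.09, adjusted p = 0.0513) and the 800 ppm rats at 13.6, 16.2, 17, 17.9 and 13.1 (0.93 ± 0.09, adjusted p = 1.96e-10). Exposed and control rats overlapped only at 400 ppm. Mcm2, Mcm4, Mcm5 and Mcm6 also rose at the top concentration of both compounds, by 1.42, 0.72, 2.03 and 1.81 with 1,2-DCB and 0.98, 0.99, 2.18 and 2.14 with 1,4-DCB on the log2 scale. All deposited counts of Mcm5 were multiples of 3, with medians of 6 in 1,2-DCB controls and 7.5 in 1,4-DCB controls. Its changes thus rest on few control reads, and the filter bears on them.

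Top2a, the topoisomerase that untangles replicated chromosomes, was the exception at the top of 1,2-DCB. The filter bears on this gene, whose median raw count was 6 in 1,2-DCB controls and 2.5 in 1,4-DCB controls. Its 1,2-DCB controls stood at 0.016 to 0.403 normalised CPM (median 0.158), the 250 ppm rats at 0.659, 0.855, 0.615, 0.583 and 0.426 (1.88 ± 0.63, adjusted p = 0.0247), and the 500 ppm rats at 0.772, 0.152, 0.418, 0.0241 and 0 (0.63 ± 0.69, adjusted p = 0.425). At 500 ppm 2 of 5 rats lay above the controls and 1 had no count. With 1,4-DCB its controls stood at 0.0201 to 0.383 (median 0.0629), the 400 ppm rats at 0.364, 0.597, 0.632, 0.483 and 0.0849 (2.05 ± 0.57) and the 800 ppm rats at 0.413, 0.811, 0.826, 1.39 and 0.784 (3.01 ± 0.55, adjusted p = 2.95e-05), the last all above every control.

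Of the cyclins, 3 of 6 tested rose at 250 ppm and 4 of 6 at 500 ppm of 1,2-DCB, and 2 of 5 at both 400 and 800 ppm of 1,4-DCB. Ccna2, which acts with Cdk2 and Cdk1 in S phase and early mitosis, stood at 0.0921 to 0.664 normalised CPM in 1,2-DCB controls (median 0.261), at 2.09, 2.48, 1.45, 2.53 and 1.22 at 250 ppm (2.70 ± 0.43, adjusted p = 6.24e-06) and at 2.48, 1.48, 1.77, 0.386 and 0.308 at 500 ppm (2.08 ± 0.44, adjusted p = 6.99e-05). All 5 rats at 250 ppm exceeded the controls, and at 500 ppm rats F604 and F605 lay inside the control range. With 1,4-DCB the controls stood at 0.101 to 0.827 (median 0.291), the 400 ppm rats at 1.15, 1.81, 1.23, 1.13 and 0.255 (1.64 ± 0.43, adjusted p = 0.0138) and the 800 ppm rats at 2.25, 2.28, 2.01, 4.33 and 2.44 (2.88 ± 0.42, adjusted p = 8.85e-07). At 400 ppm rat F505 alone lay inside the control range, and at 800 ppm none did.

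Ccnb2 stood at 0.571 to 1.79 normalised CPM in 1,2-DCB controls (median 1.06), at 4.81, 4.32, 2.39, 4.88 and 4.87 at 250 ppm (1.94 ± 0.30, adjusted p = 5.49e-06) and at 3.97, 1.33, 3.48, 1.35 and 1.43 at 500 ppm (1.05 ± 0.31, adjusted p = 0.00349). At 500 ppm 3 of 5 rats were inside the control range. Ccnd1, the cyclin that relays growth signals to Cdk4 and Cdk6, was not called at 250 ppm and rose at 500 ppm. Its 1,2-DCB controls stood at 1.5 to 3.18 (median 2.21), the 250 ppm rats at 2.01, 2.92, 1.48, 1.38 and 2.08 (-0.21 ± 0.21, adjusted p = 0.523) and the 500 ppm rats at 2.95, 5.08, 5.55, 5.36 and 5.4 (1.10 ± 0.19, adjusted p = 5.15e-06). Only rat F601 at 500 ppm lay inside the control range, and with 1,4-DCB the 800 ppm rats, at 1.38, 1.38, 1.58, 2.16 and 1.89, all lay inside theirs of 1.32 to 2.73 (-0.25 ± 0.21, adjusted p = 0.394). Ccnd2 and Ccnd3, the other D-type cyclins, were called with neither compound.

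Of the cyclin-dependent kinases and their partners, 2 of 7 tested rose at 250 ppm, 5 of 7 at 500 ppm, and 1 of 7 at both 400 and 800 ppm, where 13.5%, 35%, 4.75% and 19.5% of all probes rose. Cks2, a small subunit that docks substrates on the kinases, rose in all 4 comparisons, by 0.87 ± 0.12, 0.86 ± 0.12, 0.44 ± 0.12 and 0.88 ± 0.11. Cdk4 rose by 0.64 ± 0.13 at 500 ppm of 1,2-DCB, where the rats stood at 41.9, 32, 34.8, 31 and 30.2 normalised CPM against controls at 9.05 to 27.2 (median 23.1). At 800 ppm of 1,4-DCB it stood at 24.5 to 31.7 against 19.6 to 29.6 (0.19 ± 0.09, adjusted p = 0.11). Cdk2 and Cdk19 were called in none of the 4 comparisons.

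All 3 tested genes of mitotic kinases and the checkpoint rose in each of the 4 comparisons. Plk4, the kinase that starts centriole duplication, stood at 0.238 to 0.885 normalised CPM in 1,2-DCB controls (median 0.585), at 2.61, 3.13, 1.82, 2.87 and 2.26 at 250 ppm (2.21 ± 0.30, adjusted p = 4.86e-07) and at 2.95, 6.22, 4.88, 3.9 and 5.09 at 500 ppm (3.07 ± 0.29, adjusted p = 1.13e-11). Every exposed rat exceeded every control. With 1,4-DCB it rose by 1.2 ± 0.25 at 400 ppm and by 1.67 ± 0.25 at 800 ppm. Cdc20, the activator of the anaphase-promoting complex, stood at 0.529 to 1.88 in 1,2-DCB controls (median 1.21), at 5.8, 5.84, 4.53, 5.88 and 3.76 at 250 ppm (2.14 ± 0.29, adjusted p = 5.81e-07) and at 6.56, 2.03, 4.46, 1.12 and 1.62 at 500 ppm (1.42 ± 0.30, adjusted p = 7.29e-05). As for Ccna2, rats F604 and F605 at 500 ppm lay inside the control range.

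Among the Cenp and Cdca genes and Zwint, 6 and 7 of 8 tested rose at 250 and 500 ppm of 1,2-DCB, and 3 and 5 of 6 at 400 and 800 ppm of 1,4-DCB. Zwint, which links the kinetochore scaffold to the checkpoint machinery, stood at 10.8 to 15.6 normalised CPM in 1,2-DCB controls (median 13.8), at 24, 34.9, 27.9, 22.7 and 23.8 at 250 ppm (0.94 ± 0.09, adjusted p = 9.99e-11) and at 160.8, 135.85, 128.7, 116.46 and 138.97 at 500 ppm (3.30 ± 0.09, adjusted p = 5.81e-29). No group overlapped with the next. Under 1,4-DCB, Zwint stood at 12 to 16.5 in controls (median 13.1), at 17.3, 23.1, 22.8, 17.1 and 16.3 at 400 ppm (0.50 ± 0.09, adjusted p = 0.000377) and at 27, 29.8, 25.3, 23.6 and 21.9 at 800 ppm (0.90 ± 0.09, adjusted p = 2.36e-10). Cenpf, a large protein of the outer kinetochore, rose by 2.74, 2.08, 2.11 and 2.73 on the log2 scale in the 4 comparisons, and Cenpw, a histone-fold subunit of the inner kinetochore, by 3.03, 2.29, 1.86 and 3.10. The filter bears on both genes. Their median raw counts were 6 and 3.5 in 1,2-DCB controls and 8 and 2 in 1,4-DCB controls.

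Motors and cytokinesis genes rose in 7 of 7 tested at both 250 and 500 ppm of 1,2-DCB, and in 5 and 6 of 6 at 400 and 800 ppm of 1,4-DCB. The filter bears on these counts, since Kif22, Racgap1, Kif20a and Kifc1 had median raw counts of 4.5, 4.5, 4 and 0.5 in 1,2-DCB controls. Racgap1, a subunit of the centralspindlin complex that places the cleavage furrow, stood at 0 to 0.302 normalised CPM in 1,2-DCB controls (median 0.112), at 1.35, 1.88, 0.96, 1.36 and 1.02 at 250 ppm (3.34 ± 0.48, adjusted p = 1.05e-06) and at 1.08, 0.796, 0.855, 0.483 and 0.336 at 500 ppm (2.45 ± 0.49, adjusted p = 3.88e-05). Every exposed rat exceeded every control. With 1,4-DCB it rose by 1.81 ± 0.37 and 2.72 ± 0.36. Kif18b stood at 0.161 to 0.758 in 1,2-DCB controls (median 0.393), at 3.68, 4.03, 2.34, 4.88 and 2.59 at 250 ppm (3.06 ± 0.31, adjusted p = 6.95e-10) and at 3.91, 3.51, 3.34, 1.86 and 2.69 at 500 ppm (2.86 ± 0.31, adjusted p = 2.12e-10), all above the controls. Prc1 rose by 2.68, 2.17, 1.49 and 2.35 and Kif22 by 2.66, 2.26, 1.94 and 2.36 over the 4 comparisons, the genes whose promoters are printed above.

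**Figure D2:**
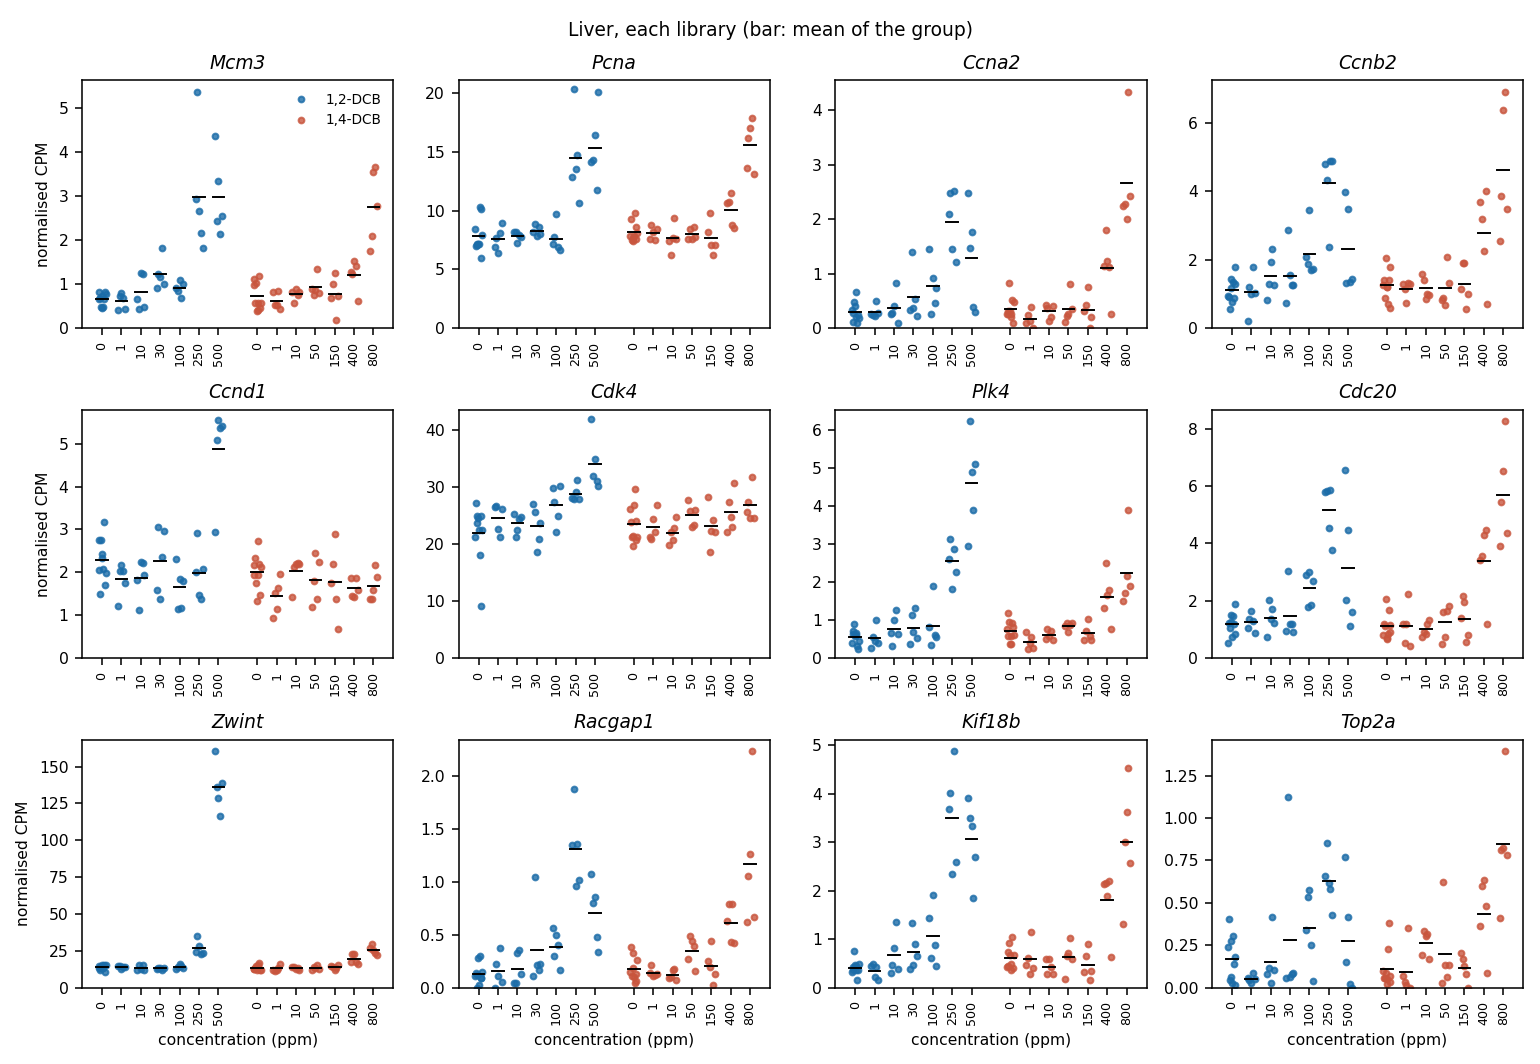
Normalised CPM in liver (vertical axes, from 0) of 12 genes in each library by concentration in ppm (horizontal axes), for 1,2-DCB (blue) and 1,4-DCB (red), with the group mean as a bar. Most genes stand near their control level up to 100 or 150 ppm, Zwint reaches 116.46 to 160.8 at 500 ppm of 1,2-DCB, and Ccnd1 rises at that concentration and with 1,4-DCB does not.

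Between the 2 compounds, 23 genes rose in liver at both top concentrations. A further 10 rose with 1,2-DCB at 500 ppm and not with 1,4-DCB at 800 ppm, of which Ccnd1, Cdc25a, Cdk4, Cdk6, Cdk7 and Mcm10 were tested there and not called and Ccne2, Cdca8, Cenpq and Kifc1 were not tested. Top2a rose with 1,4-DCB at 800 ppm and was not called at 500 ppm of 1,2-DCB. Of all probes, 35% rose at 500 ppm of 1,2-DCB and 19.5% at 800 ppm of 1,4-DCB, and the share that rose at both was not computed. These concentrations differ, so the values stand side by side and the difference was not tested.

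The compounds share 1 and 10 ppm, and at these 2 concentrations in 5 tissues the difference of their changes was tested for 33 genes in liver, 54 in kidney, 42 in heart, 55 in lung and 56 in ovary. It passed for 0 genes in all 10 comparisons (edgeR, 0 to 3 at an unadjusted p under 0.05), and over all probes it passed for 0 in 9 of them and for 0.0479% in heart at 10 ppm. For Pcna in liver the change with 1,4-DCB minus that with 1,2-DCB was 0.03 at 1 ppm (95% interval -0.25 to 0.31, as 1.96 standard errors each way) and -0.11 at 10 ppm (-0.39 to 0.17). For Ccna2 the intervals were wide, from -2.35 to 0.29 at 1 ppm and from -1.77 to 0.70 at 10 ppm. The interval lay within a 2-fold difference for 12 and 11 of 33 genes in liver and for 37 and 35 of 56 in ovary, so for many genes these data cannot tell a shared response from a 2-fold one. The separate control groups of the compounds differed in 0 genes (2 to 6 at an unadjusted p under 0.05), when 0.761% of all probes differed in liver, 0.67% in heart, 0.435% in lung and 0 in kidney and ovary.

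The step from the second highest to the top concentration in liver was compared after the values had been seen. From 250 to 500 ppm of 1,2-DCB, 4 of 39 genes were higher (26.2% of all probes were higher and 26.6% lower), namely Zwint (2.35 ± 0.11), Ccnd1 (1.3 ± 0.24), Plk4 (0.86 ± 0.33) and Mcm2 (0.41 ± 0.15), and Ccnb2 was lower (-0.89 ± 0.36). The median over the 39 genes was -0.08. From 400 to 800 ppm of 1,4-DCB, 7 of 35 were higher (5.84% of all probes were higher and 5.75% lower), among them Pcna (0.63), Mcm3 (1.19) and Mcm6 (1.25), and Cdk19 was lower (-0.77), with a median of 0.63. Leaving out 1 rat moved the 1,2-DCB count of 5 to between 3 and 10, the latter without rat F601 and the former without rat F602 or F505.

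Rats of 1 group also differed at the upper concentrations. At 250 ppm of 1,2-DCB each rat had 27 to 29 of 39 genes above every control, where 15.5% to 19.4% of all probes tested were. At 500 ppm rats F601 and F603 had 31, F602 26, F605 24 and F604 20, where 29.2% to 35% of all probes were. At 400 ppm of 1,4-DCB rats F501 to F504 had 17 to 21 of 35 (11.9% to 19.3% of all probes) and rat F505 had 6 (12.2%), and at 800 ppm all 5 had 22 to 26 (17% to 24.1%). Without rat F502 the 400 ppm count fell from 16 to 9 genes, and without rat F505 it was 19.

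**Figure D3:**
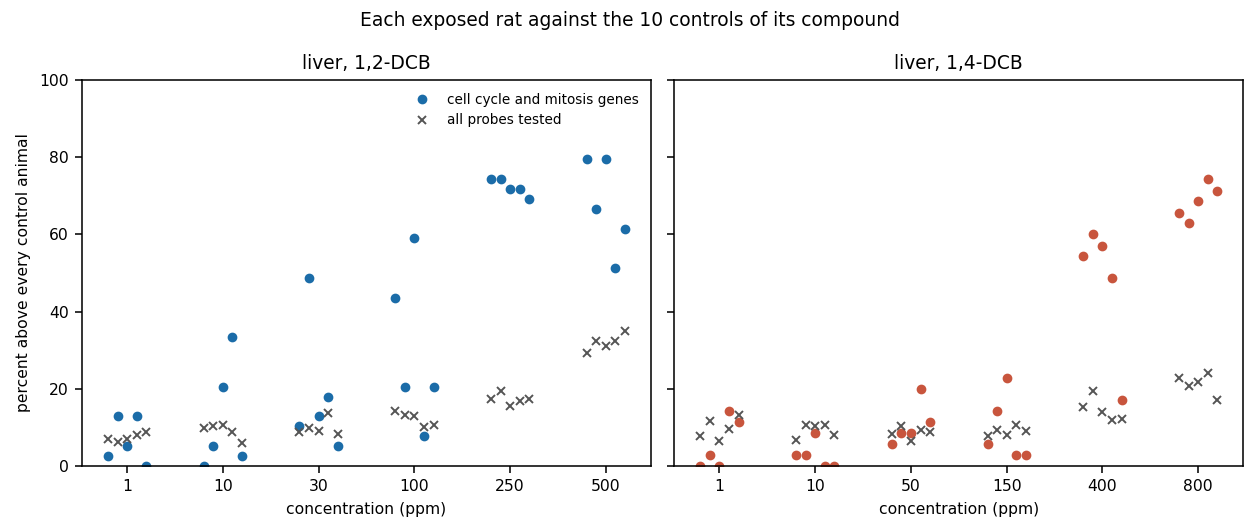
Percent of tested genes above all 10 control rats of the same compound (vertical axis) for each exposed rat in liver by concentration in ppm (horizontal axis), for cell cycle and mitosis genes (circles) and all probes tested (crosses), with 1,2-DCB on the left and 1,4-DCB on the right. The circles of the 250 ppm rats lie together at 69.2% to 74.4%, those at 500 ppm spread from 51.3% to 79.5%, and 1 rat at 400 ppm stands at 17.1%.

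Markers of macrophages and lymphocytes fell beside the rise at 500 ppm of 1,2-DCB and were not called at 250 ppm. At 500 ppm of 1,2-DCB 7 of 7 macrophage markers fell (summed level 83.3 to 120.97 CPM in controls, 43.9 to 59.4 in exposed rats), 3 of 4 tested lymphocyte markers fell (27.4 to 49.2 against 15.4 to 25) and, of 8 hepatocyte markers, 6 fell and 1 rose. At 250 ppm 0 macrophage and 0 lymphocyte markers were called, and 4 hepatocyte markers fell. At 800 ppm of 1,4-DCB 4 of 7 macrophage markers fell (89.4 to 108.8 against 71.5 to 92) and 3 of 3 erythroid markers rose (71.7 to 223.7 against 110.7 to 316.8). Of all probes in liver, 11.2%, 32.7% and 15.4% fell and 13.5%, 35% and 19.5% rose at 250, 500 and 800 ppm. The part of these cell types in the 250, 500 and 800 ppm results was not tested.

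Other genes of the same processes moved in liver too. Among 28 further genes of mitosis and proliferation, 23 were tested, and 17 rose at 250 ppm, 17 rose and 1 fell at 500 ppm, 12 rose at 400 ppm and 17 at 800 ppm. Spc24, a subunit of the Ndc80 kinetochore complex, rose by 3.64 ± 0.29 and 3.25 ± 0.29 with 1,2-DCB and 2.86 ± 0.29 at 800 ppm of 1,4-DCB, and Mki67, the gene of the proliferation antigen Ki-67, by 2.09 ± 0.31, 1.72 ± 0.31 and 1.98 ± 0.32. Of 20 genes of DNA synthesis and origin firing, 17 were tested. They rose in 10 at 250 ppm and 13 at 500 ppm (2 fell), and in 0 at 400 ppm and 13 at 800 ppm. Rrm1, the large subunit of ribonucleotide reductase, rose by 1.02 ± 0.12 and 0.81 ± 0.12 with 1,2-DCB and by 0.75 ± 0.13 at 800 ppm.

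These counts stand beside the 13.5%, 35%, 4.75% and 19.5% of all probes that rose, and the 11.2%, 32.7%, 1.68% and 15.4% that fell, at 250, 500, 400 and 800 ppm, as do the counts of regulators that follow. Of 11 genes of CDK inhibitors, the Rb family and E2F, 6 were tested, of which 3, 3, 2 and 2 rose and 0, 1, 0 and 1 fell. E2f1, an activator of replication genes, rose by 2.09 ± 0.35 and 1.75 ± 0.36 with 1,2-DCB and 1.25 ± 0.38 and 1.92 ± 0.37 with 1,4-DCB. E2f2, its close relative, fell by 1.17 at 500 ppm, and Cdkn1b, the inhibitor p27, fell by 0.30 at 800 ppm. Of the 19 growth factor and immediate early genes, 14 were tested with 1,2-DCB, of which 0 rose and 4 fell at 250 ppm and 4 rose and 5 fell at 500 ppm. With 1,4-DCB 15 were tested, of which 0 rose and 1 fell at 400 ppm and 1 rose and 7 fell at 800 ppm. With 1,2-DCB Egf fell by 0.88 and 1.82 and Igf1 by 0.89 and 2.09 at 250 and 500 ppm, whereas Fosl1 and Atf3, stress-responsive AP-1 and ATF family factors, rose by 8.29 ± 0.53 and 4.12 ± 0.48 at 500 ppm. At 800 ppm Hgf, a mitogen of hepatocytes, fell by 1.01. Of 11 tested p53 targets, 2 rose at 250 ppm (13.5% of all probes did), 8 rose and 1 fell at 500 ppm (35% and 32.7%), 1 rose at 400 ppm (4.75%), and 3 rose and 1 fell at 800 ppm (19.5% and 15.4%). The median over them was 0.19, 1.06, 0.05 and 0.02, and Mdm2, the p53 ligase, stood at 0.32, 1.93 and 0.54 at 250, 500 and 800 ppm.

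Outside the liver most of the called genes fell, and calls were made at the top concentration alone, apart from a single rise at the lowest one. In heart 15 of 42 tested genes fell and 1 rose with 1,2-DCB (6.79% of all 2092 probes fell and 5.16% rose), and 8 of 39 fell with 1,4-DCB (3.8% of all 2054 probes fell and 3.07% rose). In kidney 9 of 50 fell and 2 rose (7.7% fell and 8.72% rose) with 1,2-DCB, and 5 of 51 fell with 1,4-DCB (2.67% fell and 2.37% rose). In lung 7 of 53 fell with 1,2-DCB (4.68% fell and 4.16% rose) and 6 of 55 with 1,4-DCB (3.04% and 2.87%). In ovary 1 of 57 fell with 1,2-DCB (1.39% fell and 1.52% rose) and 2 of 57 with 1,4-DCB (4.23% in each direction). The median log2 fold change of the tested genes was -0.52 and -0.41 in heart, -0.27 and -0.29 in kidney, -0.32 and -0.28 in lung, and 0.05 and 0.15 in ovary, for 1,2-DCB and 1,4-DCB in turn. At 1 ppm of 1,2-DCB in heart 1 of 42 genes rose, Zwint, when 4.25% of all probes rose and 1.39% fell, and it was not called without rat F101, without rat F102, without any 1 of 9 of the 10 controls, or with size factors. With voom the 1,4-DCB counts at the top concentration were 4 in heart and 3 in kidney, and with the excluded libraries put back 1 gene was called in 1,4-DCB lung in place of 6. Over the comparisons in all tissues with 0 of these genes called, the share of all probes called was 0.0495% in liver at 10 ppm, 0.381% and 0.0846% in kidney at 10 and 250 ppm, 0.0434% in lung at 30 ppm and 0.0435% in ovary at 250 ppm of 1,2-DCB, 0.215% in kidney at 400 ppm of 1,4-DCB, and 0 in the others.

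**Figure D4:**
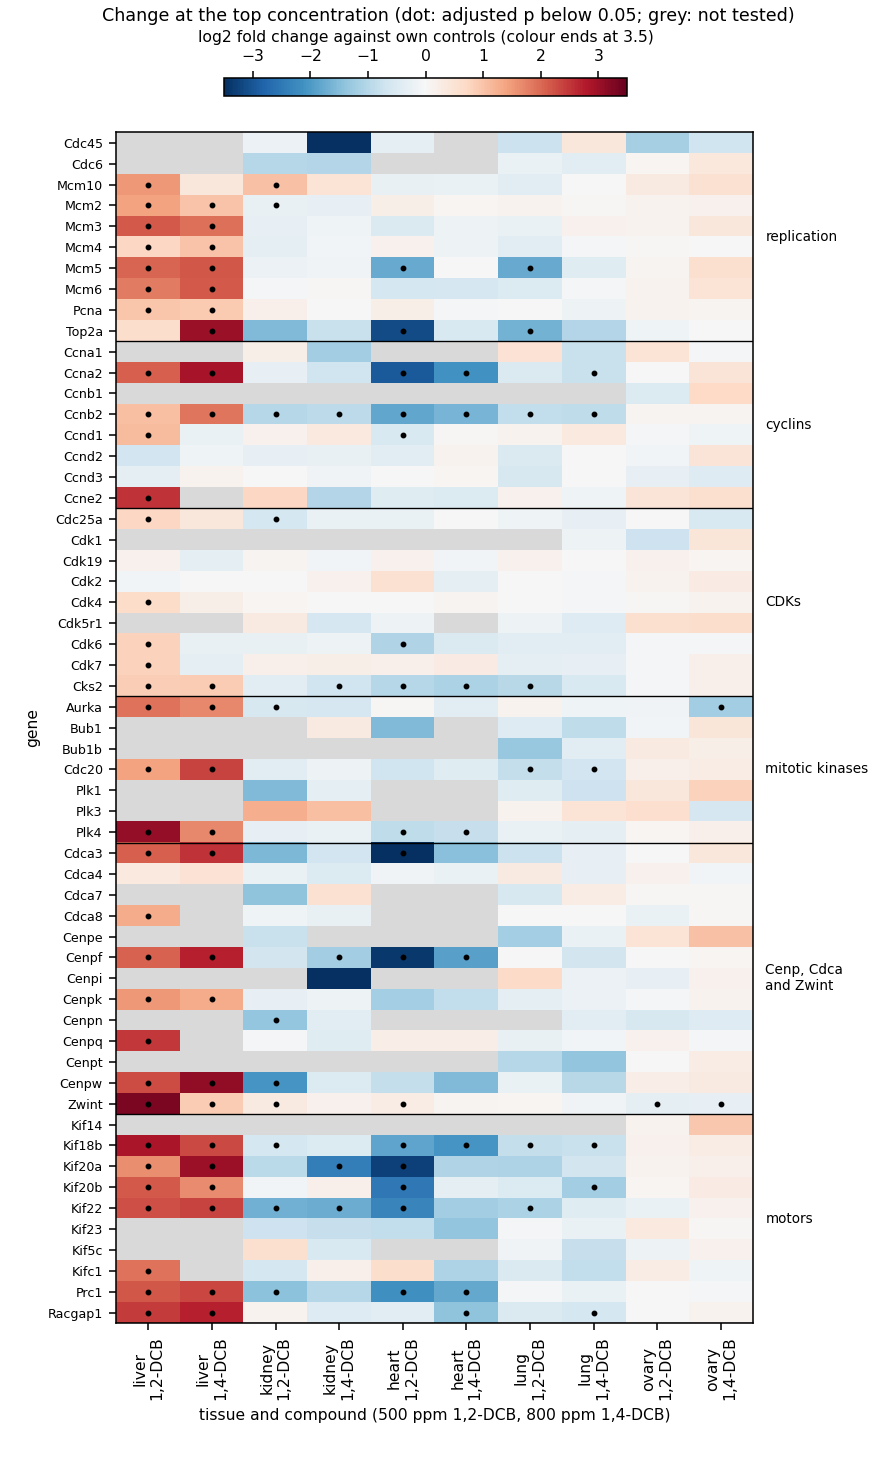
Log2 fold change at 500 ppm of 1,2-DCB and 800 ppm of 1,4-DCB against own controls (colour, red higher, blue lower, ending at 3.5 each way) for each gene tested in at least 1 comparison (rows, by role) in 5 tissues (columns). Dots mark an adjusted p below 0.05 and grey cells were not tested, and the 2 liver columns are mostly red with dots while dots in heart, kidney and lung are mostly on blue.

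Some genes fell repeatedly. Ccnb2 fell in 6 of the 8 comparisons outside liver, with both compounds in heart, kidney and lung. Kif18b fell in 5, Cks2 and Kif22 in 4, and Ccna2, Cenpf and Prc1 in 3. In all, 23 genes fell in at least 1 of these comparisons. The share of all probes that fell in 1 or more of them was not computed, so these counts have no background.

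In heart with 1,2-DCB the fallen genes were 5 of 8 tested motors, 3 of 6 cyclins, 2 of 7 of the Cenp, Cdca and Zwint genes, 2 of 9 replication genes, 2 of 8 kinases and partners and 1 of 4 mitotic kinases. Ccna2 stood at 1.36 to 5.82 normalised CPM in controls (median 2.88) and at 0.268, 0.207, 0.61, 0.486 and 0.351 at 500 ppm (-2.93 ± 0.39, adjusted p = 6.79e-07). With 1,4-DCB it stood at 1.19 to 3.87 (median 2.55) and at 0.382, 0.164, 0.654, 1.15 and 0.546 at 800 ppm (-2.13 ± 0.41, adjusted p = 0.000522). Every exposed rat lay below every control with both compounds. Cenpf stood at 0.953 to 6.08 in 1,2-DCB controls (median 2.18) and at 0, 0.0689, 0, 0.347 and 0.771 at 500 ppm (-3.38 ± 0.57, adjusted p = 3.61e-05). In 2 of those 5 hearts it had no count.

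Ccnb2 in heart stood at 2.21 to 7.29 normalised CPM in 1,2-DCB controls (median 5.28) and at 0.895, 2.14, 0.958, 1.6 and 1.4 at 500 ppm (-1.82 ± 0.30, adjusted p = 2.48e-05), all below the controls. With 1,4-DCB it stood at 1.55 to 9.79 (median 6.27) and at 2.22, 2.29, 2.34, 0.842 and 1.64 (-1.62 ± 0.37, adjusted p = 0.00388), with 1 of 5 rats below every control. Kif18b fell by 1.84 with 1,2-DCB and by 2.08 with 1,4-DCB. Zwint went the other way in 1,2-DCB hearts, at 121.7 to 150.2 in controls (median 131.6) and 170.8, 157.2, 157.05, 157.1 and 157.75 at 500 ppm (0.26 ± 0.08, adjusted p = 0.0167), all above the controls. Fibroblast markers moved with these falls at 500 ppm, where 4 of 7 fell (summed level 2162 to 3485 CPM in controls, 817 to 1122 in exposed rats). At 800 ppm of 1,4-DCB 1 of 7 fell (1917 to 2859 against 1833 to 1995). Of all probes in heart, 6.79% fell at 500 ppm and 3.8% at 800 ppm. The part of fibroblasts was not tested.

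In kidney Ccnb2 stood at 3.35 to 7.32 normalised CPM in 1,2-DCB controls (median 5.55) and at 2.36, 2.62, 3.43, 3.51 and 2.16 at 500 ppm (-1.01 ± 0.22, adjusted p = 0.000862), with 2 of 5 rats inside the control range. The fall with 1,4-DCB was 0.93. Kif22 fell by 1.69 and 1.74 with the 2 compounds. Mcm10, a factor that loads polymerase alpha at origins, rose with 1,2-DCB, from 7.45 to 31.2 in controls (median 19.3) to 32.7, 62.3, 29.5, 38.8 and 33.3 (1.02 ± 0.27, adjusted p = 0.00651), with 4 of 5 rats above every control. All deposited counts of Mcm10 were multiples of 9, so they overstate the reads behind them. Zwint rose in kidney with 1,2-DCB as well, from 230.6 to 272.8 (median 266.05) to 302.8, 311.5, 325.5, 372.7 and 293.5 (0.30 ± 0.06, adjusted p = 0.000794), with no overlap. At 500 ppm 2 lymphocyte markers (summed 706 to 998.8 CPM against 300.85 to 449.9), 3 macrophage markers (825 to 1153 against 477 to 852) and 2 fibroblast markers (703.5 to 1178 against 331 to 533) fell. Each sum covers every marker of its list on the panel. The other markers of these lists were not called as falls, and the number tested in kidney is not given here. Of all probes in kidney, 7.7% fell and 8.72% rose at that concentration. The part of these cell types was not tested. With 1,2-DCB the count of called genes was 5 without rat F602 and 6 without rat F604, in place of 11. With 1,4-DCB it was 3 without rat F601 and 2 without rat F602 or F603, in place of 5.

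In lung Ccnb2 stood at 11.1 to 22.9 normalised CPM in 1,2-DCB controls (median 16.4) and at 15.9, 8.94, 4.83 and 6.73 at 500 ppm (-0.86 ± 0.26, adjusted p = 0.0342), with 3 of 4 rats below every control. With 1,4-DCB it stood at 7.71 to 20.9 (median 16.1) and at 5.72, 8.35, 11, 7.48 and 10.2 (-0.90 ± 0.19, adjusted p = 0.00314), with 2 of 5 below. Ccna2 fell with 1,4-DCB, from 6.6 to 11.5 (median 9.45) to 6.12, 5.36, 4.71, 5.6 and 4.97 (-0.77 ± 0.17, adjusted p = 0.0057), and no exposed rat overlapped. Cks2 fell with 1,2-DCB, from 11.1 to 24.6 (median 13.9) to 9.05, 9.63, 5.66 and 6.85 (-0.97 ± 0.19, adjusted p = 0.000628), also with no overlap. At 500 ppm 4 of 7 fibroblast markers fell (1868 to 3376 CPM against 939 to 1353), and at 800 ppm 0 of 7 did (2519 to 3490 against 2298 to 2931). Of all probes in lung, 4.68% fell at 500 ppm and 3.04% at 800 ppm. The part of fibroblasts was not tested. Without rat F604 or rat F605 the 1,2-DCB count was 3 in place of 7.

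In ovary, where the set is most abundant, the called share was close to that of all probes. Zwint fell by 0.33 with 1,2-DCB (583 to 909 normalised CPM in controls, median 705, against 579, 572, 471, 617 and 610) and by 0.29 with 1,4-DCB (617.8 to 822.1, median 704.25, against 604.1, 586.05, 592.9, 520.99 and 629.2). Aurka fell with 1,4-DCB, from 34.6 to 141.5 (median 53.6) to 37.2, 19.9, 23, 20 and 37.7 (-1.21 ± 0.34, adjusted p = 0.0214). Exposed and control rats overlapped for both genes. The 1,2-DCB call was lost without rat F601, F602, F603 or F604 and without any 1 of 7 of the controls. Both 1,4-DCB calls were lost without rat F602, F603 or F604, 1 was lost without control F5 or F8, and 4 genes were called without rat F601. Between rats at 800 ppm of 1,4-DCB, 0 to 20 of 57 genes lay above every control, where 9.26% to 16.3% of all probes did.

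**Figure D5:**
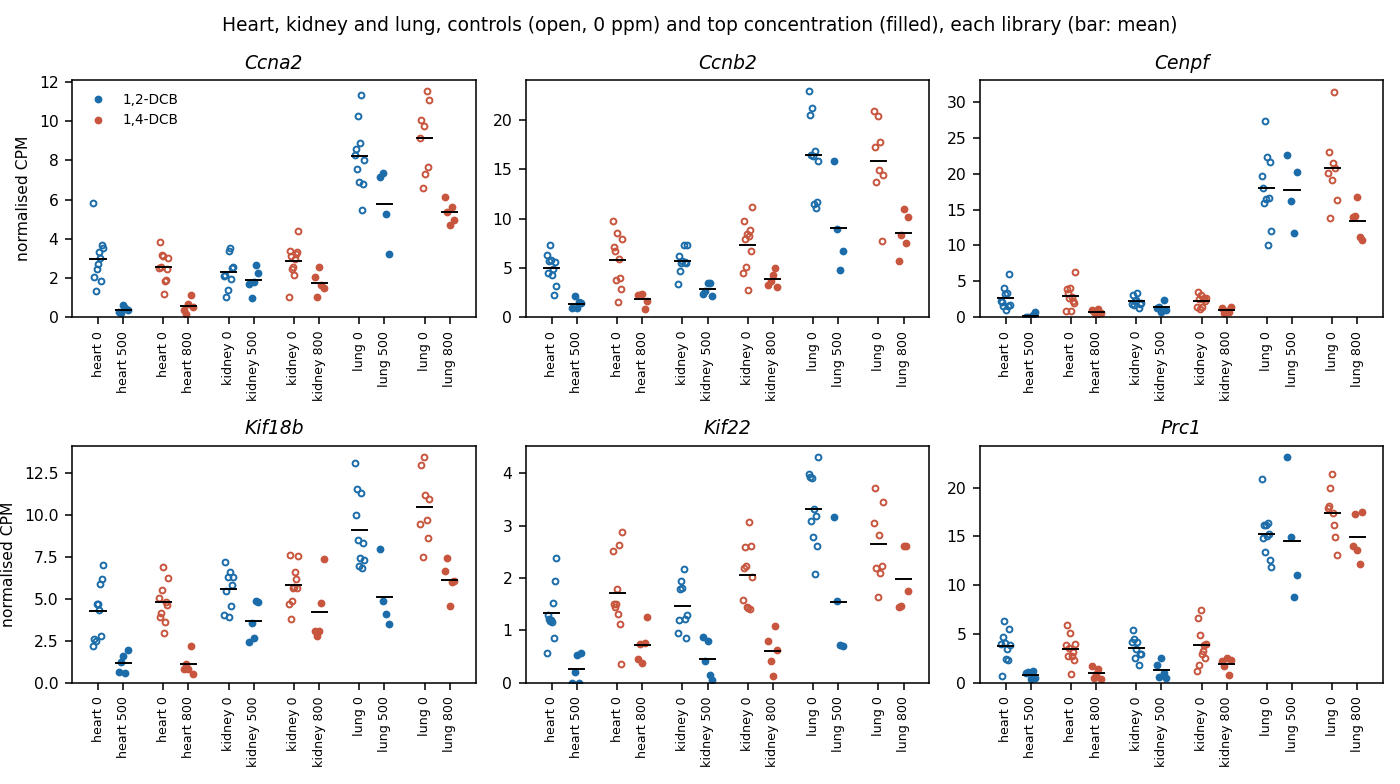
Normalised CPM (vertical axes, from 0) of 6 genes in heart, kidney and lung for controls (open circles, 0 ppm) and the top concentration (filled circles, 500 ppm of 1,2-DCB in blue, 800 ppm of 1,4-DCB in red), 1 circle per library and the group mean as a bar. Ccna2 in heart falls from 1.36 to 5.82 in 1,2-DCB controls to 0.207 to 0.61, with no overlap, and Cenpf and Prc1 in lung overlap widely.

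The difference between liver and each other tissue was tested directly, as the liver's log2 change minus the other tissue's, over 57 genes. With 1,2-DCB at 500 ppm the change was higher in liver for 39 genes against kidney (21.3% of all 2532 probes were), 37 against heart (18.6%), 36 against lung (18.2%) and 28 against ovary (20.5%). It was lower in liver for 1 gene, Cdk2 against heart (-0.82). With 1,4-DCB at 800 ppm it was higher for 33 against kidney (6.46% of all 2555 probes), 32 against heart (7.63%), 33 against lung (6.5%) and 27 against ovary (9.24%), and lower for Ccnd1 against lung (-0.73) and Cdk19 against ovary (-0.51). The comparisons share the same livers and are not independent of each other.

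Of the 57 genes, 18 were higher in liver against all 4 tissues with both compounds, among them Ccna2, Cenpf, Plk4, Mcm3, Pcna and Zwint. The share of all probes higher in all of these comparisons was not computed. Ccna2 differed most from heart, by 4.84 ± 0.51 and 4.88 ± 0.53, and by 1.92 ± 0.42 and 2.31 ± 0.45 from ovary. Plk4 differed by 2.85 ± 0.30 to 3.77 ± 0.32 with 1,2-DCB and by 1.35 ± 0.31 to 2.34 ± 0.33 with 1,4-DCB. Pcna differed by 0.54 ± 0.14 to 0.79 ± 0.15 with 1,2-DCB and by 0.70 ± 0.13 to 0.97 ± 0.13 with 1,4-DCB, and it was called in no tissue other than liver.

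The remaining 25 genes were called in none of the 10 comparisons at the top concentration. They include Cdk1, the mitotic kinase that pairs with Ccnb2, Plk1, which drives mitotic entry, and the checkpoint kinases Bub1 and Bub1b. In liver these 4 did not pass the filter on low values and have no test, and their raw counts were few. Plk1 had 0 to 1 counts per library in 1,2-DCB controls, 0 to 11 at 250 ppm and 3 to 8 at 500 ppm, and Bub1b had 0 to 4, 4 to 11 and 0 to 16. With 1,4-DCB Plk1 had 0 to 2 in controls and 1 to 25 at 800 ppm, and Bub1b 0 to 6 and 3 to 29. Cdk1 stood at 0 to 8 counts in all of these groups, and Bub1 at 0 to 16. Even in 1,2-DCB control ovaries the median count of Cdk1 was 13, so the lack of a call says little about this gene.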

How the data were processed

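The authors deposited attenuation-adjusted raw counts per TempO-Seq probe, in 1 table over all tissues, and reads were aligned with Bowtie 1.3.1, per the submitters' processing notes. The sources used here name no build for the probe reference. Libraries the authors marked as not used were left out, leaving 390, and no 2 libraries held identical values. Each tissue and compound was fitted with edgeR 4.0.16 in R 4.3.3 (TMM, filterByExpr with a minimum count of 10, robust quasi-likelihood test) on all probes and 7 groups, with Benjamini-Hochberg adjustment over all tested probes and a threshold of 0.05. Errors of log2 fold changes are standard errors. Alternatives were DESeq2 1.42.0, its size factors, voom in limma 3.58.1, other filters, the rat as a block, and leaving out each rat. The rat number was taken to tie the tissues of 1 animal. Deviations of a rat from its group correlated above 0.1 in 588 of 760 cases, each 1 rat in 1 pair of tissues. Tissues of different rats were not compared, so these correlations cannot show that the number identifies the animal. The fit was tested on simulated data. Genes were named by rank of adjusted p within a role at the top concentration. The members, gene lists and rules were chosen with earlier results of these data known. Promoters are RefSeq GRCr8.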

Additional observations from a re-analysis of the deposited data

Results flagged for a closer look

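Single libraries stood apart from the other animals of their group in 10 groups of values, 7.58% of those checked, by Dixon's criterion, where chance gives about 1 in 20. In liver with 1,2-DCB, Ccnb2 at 250 ppm was 2.39 normalised CPM in rat F503 (next 4.32), Ccnd1 at 500 ppm was 2.95 in rat F601 (next 5.08), and Cdk4 was 9.05 in control F8 (next 18.1). In liver with 1,4-DCB, rat F604 at 800 ppm was high for Ccna2 (4.33, next 2.44) and Plk4 (3.89, next 2.16), and rat F505 at 400 ppm was low for Kif18b (0.623, next 1.9). In heart with 1,2-DCB, Ccna2 was 5.82 in control F1 (next 3.7) and Zwint at 500 ppm was 170.8 in rat F601 (next 157.75). In kidney Mcm10 at 500 ppm of 1,2-DCB was 62.3 in rat F602 (next 38.8), and in lung Cks2 was 24.6 in 1,2-DCB control F7 (next 17.8).

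The change at the top concentration differed between liver and each other tissue by the direct test. With 1,2-DCB 39 genes differed against kidney, 38 against heart, 36 against lung and 28 against ovary, and with 1,4-DCB 33, 32, 34 and 28.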

How the results depend on the processing

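No gene called in the main fit reversed direction under any setting or left-out rat in which it was still tested. Over the processing settings 1516 values of such genes kept the call and 73 lost it. Over the left-out animals 3427 kept it and 296 lost it. A called gene that a setting's filter removed from the test is in neither count. A filter at a mean of 20 CPM, which leaves few of these genes in the test, gave 0 calls at 100 ppm, 2 at 250 ppm and 2 at 500 ppm of 1,2-DCB in liver and 0 at 400 ppm and 0 at 800 ppm of 1,4-DCB. For 1,2-DCB and 1,4-DCB in turn it gave 3 and 0 in kidney, 1 and 0 in heart, and 0 and 1 in lung. For liver minus kidney, heart, lung and ovary it gave 7, 8, 8 and 7 with 1,2-DCB and 6, 6, 6 and 6 with 1,4-DCB, and for the step to the top concentration in liver 2 and 0.

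With voom 0 genes were called at 100 ppm in liver, 3 in 1,4-DCB kidney, 4 in 1,4-DCB heart and 2 in heart at 1 ppm. The heart 1 ppm count was 0 with size factors, with no filter, with attenuation steps divided out and with only that group and its controls. The last setting gave 3 in 1,4-DCB kidney, 4 in 1,2-DCB lung and 1 in 1,4-DCB ovary. Putting excluded libraries back gave 1 in 1,4-DCB lung, and size factors or no filter gave 0 in 1,2-DCB ovary. Genes lowest in liver controls on TMM-scaled libraries were 31 and 29.

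Leaving out 1 animal gave 26 to 30 and 31 to 34 in liver at 250 and 500 ppm of 1,2-DCB, 0 to 3 at 100 ppm, and 9 to 19 and 24 to 25 at 400 and 800 ppm of 1,4-DCB. For 1,2-DCB and 1,4-DCB in turn it gave 5 to 12 and 2 to 6 in kidney, 11 to 17 and 7 to 9 in heart, 3 to 8 and 4 to 8 in lung, and 0 to 1 and 0 to 4 in ovary. The heart 1 ppm count ranged from 0 to 2, and the steps to the top concentration from 3 to 10 and 5 to 9.

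With the rat as a replicate block, pairing the tissues of 1 animal, 39, 35, 36 and 29 genes differed between liver and kidney, heart, lung and ovary with 1,2-DCB and 35, 32, 31 and 29 with 1,4-DCB. Within a tissue each rat gives 1 library, so no block could be fitted there. Liver counts of these genes are low, which limits what could be tested.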
